A study of Mus musculus with 8 samples.

Results

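The serpins are a large family of protease inhibitors, and the liver makes many of those found in blood plasma. Their genes were followed in liver RNA from C57BL/6J and KKAy mice through every array probe whose gene name in the scanner files begins with Serpin. The 53 genes and 71 probes described here were found by that rule, and 35 genes and 45 probes of them had a signal well above background on the 2 arrays of 1 group or more. Those 35 are a part of the 17047 genes tested. The array held 20 genes of clade A, which were divided into the Serpina1 cluster (4 genes, 3 kept), the Serpina3 cluster (8 genes, 7 kept) and 8 other clade A genes, all 8 kept. Clade B had 24 genes, 10 of them kept, and clades C to I together had 9, with 7 kept.

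A serpin works as a decoy: the protease cleaves an exposed loop of the inhibitor, the serpin folds around it, and both are trapped in a complex that is cleared from the circulation. Clade A and clades C, D, F and G are mostly secreted proteins that hold clotting, fibrinolysis, complement and neutrophil proteases in check, and some clade A members carry hormones instead. Clade B proteins stay inside cells, many of them white blood cells, where they guard against leaked proteases. In mice the single human genes for alpha-1-antitrypsin and antichymotrypsin are each represented by a run of duplicated genes, the Serpina1 and Serpina3 clusters, which lie side by side on chromosome 12 with other clade A genes.

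Total RNA from liver was hybridised to 8 one-colour arrays, 2 for each of 4 groups: C57BL/6J and KKAy mice at 4 weeks and at 11 weeks of age. The labels give C57BL/6J as normal and KKAy as diabetic. KKAy mice carry the yellow agouti allele on the KK background, a strain that becomes obese and hyperglycaemic. They differ from C57BL/6J across the genome as well as at that allele, and the 2 sources of difference cannot be told apart. Mice of every group were kept on chow with light for 12 h of the day and were fasted for 13.5 h. Neither their sex nor the number of animals behind an array is given in the sources used here, so p-values measure the spread between the 2 arrays of a group, which may be technical.

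Levels are log2 signals relative to the 75th percentile of the same array, so that 0 is that percentile. A probe's signal depends on its sequence as well as on its transcript, and levels are compared between groups, never between genes. That percentile lay between 492 and 1241 signal units, and 56.3% to 66.7% of probes per array were well above background. Arrays of 4 weeks were on slide 1 and those of 11 weeks on slide 2, so that age and slide cannot be told apart; on both slides C57BL/6J took positions 1 and 2 and KKAy positions 3 and 4, so that strain and position cannot be told apart either. All 8 hepatocyte markers were above background, with a summed linear signal of 1232 to 1730 times the 75th percentile. In bulk liver RNA, fewer cells of a type and less RNA per cell cannot be told apart. A gene is said to have risen, fallen or differed where its adjusted p (limma, Benjamini-Hochberg over all genes tested) was under 0.05.

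The 35 Serpin genes covered nearly the whole signal range of the arrays, and 22 of them passed the test in at least 1 of the 5 comparisons. At 4 weeks 14 of 35 differed between the strains, 5 higher and 9 lower in KKAy, where 15.4% of all genes tested differed (6.41% higher and 8.99% lower). At 11 weeks 17 of 35 differed, 9 higher and 8 lower, against 21.5% of all genes (9.96% higher and 11.5% lower). Those counts include Serpina3a, which passed the filter on dim probes through KKAy alone and so had to differ. Both strain comparisons called 12 genes, of which KKAy had 5 higher and 7 lower each time, and none changed side. The share of all genes tested that passed at least once, or in both strain comparisons, was not counted. The 22 and the 12 are thus not read as particular to the family. In both strain comparisons the kept clade A genes outside the Serpina1 and Serpina3 clusters were called only upwards in KKAy, and the clade B genes only downwards. Clades C to I were called only downwards too, but with few calls, 2 of 7 genes at 4 weeks and 1 at 11 weeks. Medians of the log2 difference at 11 weeks were 2.48 for the 8 other clade A genes, 0.10 for the 3 of the Serpina1 cluster, -0.10 for the 7 of the Serpina3 cluster, -0.96 for the 10 of clade B and 0.13 for the 7 of clades C to I, while that over all genes tested was -9.9e-05.

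**Figure D1:**
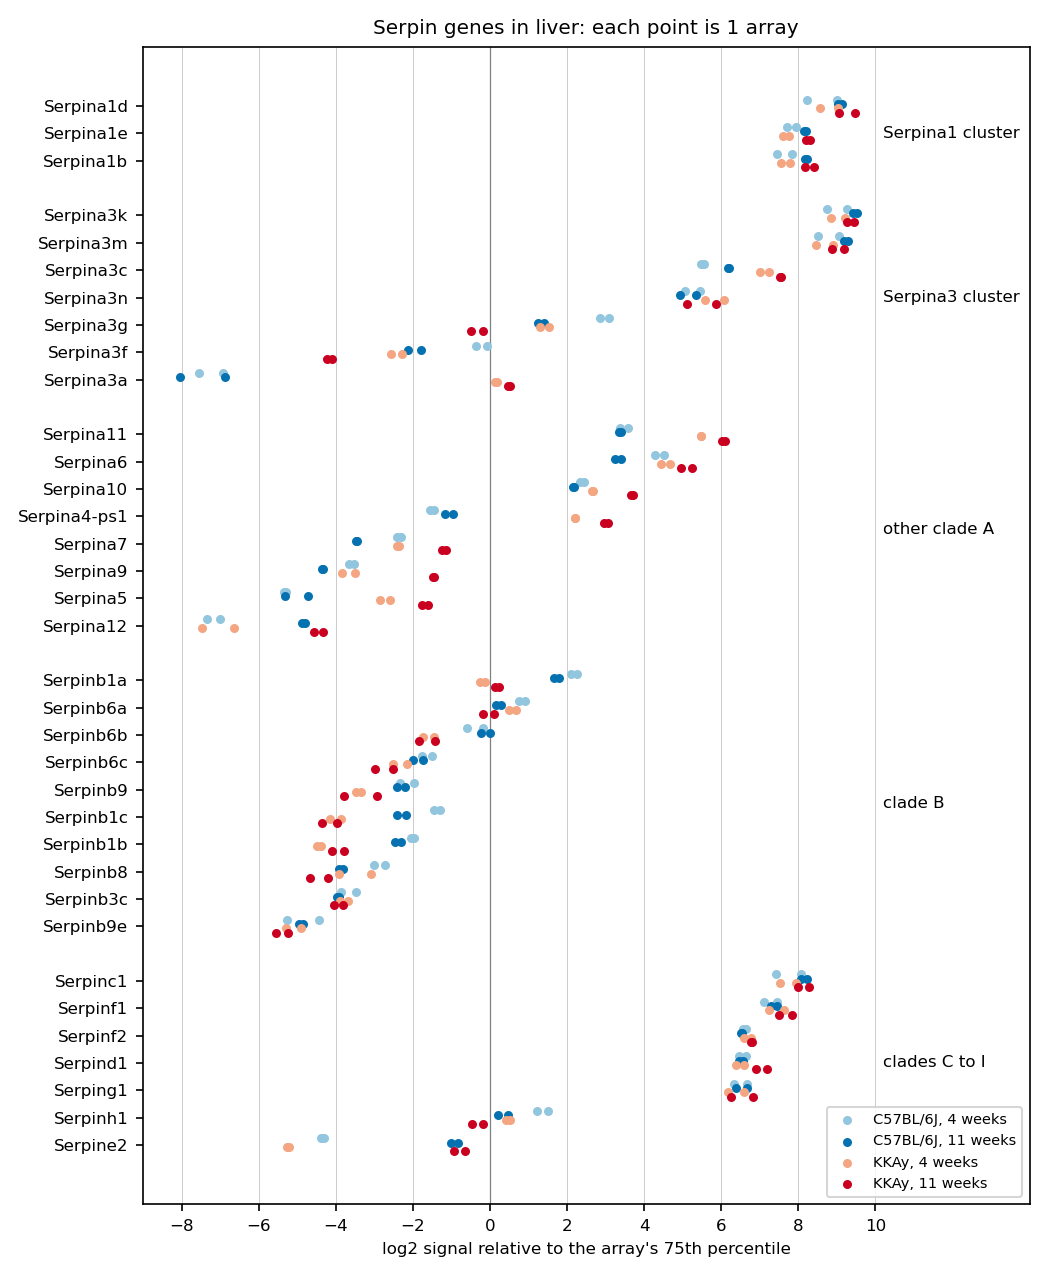
Level of each of the 35 kept Serpin genes on each of the 8 arrays (x axis, log2 signal relative to the array's 75th percentile), grouped by cluster or clade and coloured by strain and age. Points of 1 gene can be compared, those of different genes cannot; the groups lie together in the Serpina1 cluster and far apart for Serpina3a, which was at -8.04 to -6.86 in C57BL/6J and at 0.14 to 0.52 in KKAy.

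The Serpina1 genes encode the mouse alpha-1-antitrypsins, the main plasma inhibitors of neutrophil elastase. Windows of 250 bases before the transcription start were taken from RefSeq (GRCm38.p6) for the 27 of 35 kept members that had one. The 3 Serpina1 windows are shown because their upstream sequence is shared: Serpina1b at chr12:103738190-103738439 on the minus strand, Serpina1d at chr12:103773634-103773883 on the minus strand and Serpina1e at chr12:103956898-103957147 on the minus strand. Capitals mark the letters GTTAAT, letters bound by the hepatocyte factor HNF1, and TTGCNNAA, a C/EBP motif, each searched on both strands.
Serpina1b: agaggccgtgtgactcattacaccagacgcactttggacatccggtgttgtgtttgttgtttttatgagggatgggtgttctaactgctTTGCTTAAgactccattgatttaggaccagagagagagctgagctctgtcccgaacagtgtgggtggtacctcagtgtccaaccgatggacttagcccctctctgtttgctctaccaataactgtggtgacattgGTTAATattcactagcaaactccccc
Serpina1d: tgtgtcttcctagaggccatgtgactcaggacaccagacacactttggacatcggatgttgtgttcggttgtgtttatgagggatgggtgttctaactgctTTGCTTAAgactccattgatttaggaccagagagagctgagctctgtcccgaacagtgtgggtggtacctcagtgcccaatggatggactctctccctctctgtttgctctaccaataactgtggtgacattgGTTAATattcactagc
Serpina1e: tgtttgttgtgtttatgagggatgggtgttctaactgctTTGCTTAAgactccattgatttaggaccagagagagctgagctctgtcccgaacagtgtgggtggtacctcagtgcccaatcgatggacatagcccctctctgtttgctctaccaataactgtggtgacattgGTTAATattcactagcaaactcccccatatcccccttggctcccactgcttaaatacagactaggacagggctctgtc
Searched too were an interferon response motif (3.04% of all 27025 windows, 2 of 27 Serpin windows), and CACGTG, an E-box (6.05%, 0 of 27). GTTAAT was in 6.52% of all 27025 windows of that length and in 6 of the 27 Serpin windows, and TTGCNNAA in 9.55% and in 7. All 3 Serpina1 windows hold both, so each of these counts takes 3 windows from their shared sequence. The first base of GTTAAT lies 26, 16 and 78 bases before the start of Serpina1b, Serpina1d and Serpina1e. With gaps counted, aligned windows were 85.1% identical between Serpina1b and Serpina1d, 64.2% between Serpina1b and Serpina1e and 58.0% between Serpina1d and Serpina1e. Of the bases aligned to a base, 223 of 238, 194 of 198 and 181 of 188 were identical in these pairs. The shared sequence thus lies at different distances from the start.

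None of the 3 kept Serpina1 genes passed the test between the strains at either age. Serpina1b was at 7.45 and 7.84 in C57BL/6J and at 7.55 and 7.79 in KKAy at 4 weeks, and at 8.18 and 8.21 against 8.17 and 8.41 at 11 weeks. Its strain groups overlapped at both ages. The 95% interval of the strain difference was -0.40 to 0.45 for Serpina1b, -0.56 to 0.92 for Serpina1d and -0.45 to 0.16 for Serpina1e at 4 weeks. At 11 weeks the intervals were -0.33 to 0.52, -0.55 to 0.93 and -0.21 to 0.40, so differences of up to 0.93 on the log2 scale lay within the interval of Serpina1d. With age, Serpina1e rose in KKAy, from 7.61 and 7.75 to 8.21 and 8.31, by 0.58 ± 0.12 (SE; limma adjusted p = 0.0272). Its C57BL/6J arrays also lay apart, 7.71 and 7.95 against 8.19 and 8.14, but that change did not pass (adjusted p = 0.199).

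The Serpina1 probes were bright enough to be read from the low-gain scan on all 8 arrays, and this touches every statement about them. That of Serpina1d sat nearest the top of the scanner's range. The raw signal of the Serpina1d probe was 318734 to 359015 units over the 8 arrays, 56.7% to 62.3% of the brightest spot of each array. It varied by 1.13-fold while the 75th percentile varied between 492 and 1241. The Serpina1b and Serpina1e probes lay lower, at 24.0% to 34.5% and at 23.3% to 41.3% of the brightest spot. Their raw signals varied by 1.55-fold and 1.90-fold. The scaled level of Serpina1d was lowest, 8.23, on the array with the highest percentile (C57BL/6J, 4 weeks, replicate 1) and highest, 9.46, on the one with the lowest (KKAy, 11 weeks, replicate 2). No spot was flagged as saturated. In all, 11 Serpin genes were read from the low-gain scan on all 8 arrays, and 1 of them, Serpina3c, differed between the strains. What part the top of the range plays in these values was not tested. The rise of Serpina1e in KKAy did not pass under quantile normalization (0.23, adjusted p = 0.362), with spike-in scaling (0.43, adjusted p = 0.229), or without any 1 of the KKAy arrays (0.51 to 0.65, adjusted p from 0.0731 to 0.137) or of the 11-week C57BL/6J arrays (adjusted p = 0.069).

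The Serpina3 cluster, the mouse relatives of human antichymotrypsin, moved both ways. Of its 7 kept genes 2 were higher and 2 lower in KKAy, at both ages. Upstream windows are shown for 5 of them: Serpina3a (chr12:104112474-104112723 on the plus strand), which differed most; Serpina3c (chr12:104153873-104154122 on the minus strand) and Serpina3n (chr12:104406458-104406707 on the plus strand), which have nearly the same window; and Serpina3f (chr12:104214294-104214543 on the plus strand) and Serpina3g (chr12:104235897-104236146 on the plus strand), which fell together. Capitals mark GTTAAT, TTGCNNAA, the STAT motif TTCNNNGAA and the TATA box TATAAA on either strand; in Serpina3a 2 TATA matches overlap.
Serpina3a: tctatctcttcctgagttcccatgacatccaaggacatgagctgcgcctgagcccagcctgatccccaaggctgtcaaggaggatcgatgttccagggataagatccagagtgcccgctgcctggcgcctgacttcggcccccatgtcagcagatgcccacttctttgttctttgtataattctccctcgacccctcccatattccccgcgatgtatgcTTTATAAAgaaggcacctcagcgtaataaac
Serpina3c: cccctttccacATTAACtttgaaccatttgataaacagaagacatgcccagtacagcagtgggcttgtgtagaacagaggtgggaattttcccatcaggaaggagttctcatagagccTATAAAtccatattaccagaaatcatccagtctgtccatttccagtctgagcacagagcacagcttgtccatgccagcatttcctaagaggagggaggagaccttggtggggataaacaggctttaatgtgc
Serpina3n: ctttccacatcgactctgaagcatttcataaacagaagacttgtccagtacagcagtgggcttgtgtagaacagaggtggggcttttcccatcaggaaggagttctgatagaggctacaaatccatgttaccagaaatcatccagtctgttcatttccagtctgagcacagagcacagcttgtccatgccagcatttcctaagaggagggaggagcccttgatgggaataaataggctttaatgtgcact
Serpina3f: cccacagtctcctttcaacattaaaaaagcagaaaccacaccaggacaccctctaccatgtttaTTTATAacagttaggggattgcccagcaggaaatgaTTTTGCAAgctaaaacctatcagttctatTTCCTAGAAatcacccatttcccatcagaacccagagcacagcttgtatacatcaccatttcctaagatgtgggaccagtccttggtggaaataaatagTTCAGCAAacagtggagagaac
Serpina3g: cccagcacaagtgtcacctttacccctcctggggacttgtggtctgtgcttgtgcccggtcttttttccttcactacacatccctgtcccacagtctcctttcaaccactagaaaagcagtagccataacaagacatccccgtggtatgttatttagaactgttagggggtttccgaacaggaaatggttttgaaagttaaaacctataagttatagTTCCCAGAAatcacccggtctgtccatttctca
Whole windows were aligned end to end with gaps counted. The Serpina3c and Serpina3n windows were 90.5% identical, the highest value among the pairs compared in the cluster. Serpina3f and Serpina3g gave 38.8%, but such an alignment can miss a stretch that lies at different distances from the start. Both windows hold the run cccacagtctcctttcaac, and their STAT motifs, 121 and 33 bases before the start, are each followed by atcaccc. TTCNNNGAA was in 7.18% of all windows and in 4 of the 27 Serpin windows: Serpina3f, Serpina3g, Serpina11 and Serpinb6a. TATAAA was in 13.0% of all windows and in 5 Serpin windows.

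Serpina3a was measured in KKAy alone. Its probe, at chr12:104522617-104522676 on the mm8 assembly of the files, was at 0.17 and 0.14 in KKAy at 4 weeks and at 0.52 and 0.48 at 11 weeks. In C57BL/6J it was at -6.93 and -7.55 and then at -8.04 and -6.86, not well above background on any of the 4 arrays. The KKAy level was at least 62.7-fold higher at 4 weeks (limma adjusted p = 0.000313) and at least 74.9-fold at 11 weeks (adjusted p = 0.000186). Each bound sets the mean of KKAy against, per C57BL/6J array, the dimmest probe that was still well above background. The gene passed the filter only through the KKAy groups, so it had to differ, and its p-values support nothing further. With normexp background correction, an alternative that adds an offset of 50 to every signal and so shrinks the differences of dim probes, the differences were 3.93 and 4.02 on the log2 scale. KKAy levels at the 2 ages did not differ past the threshold (0.35 ± 0.40, adjusted p = 0.615).

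Serpina3c was the other member that was higher in KKAy. It was at 5.48 and 5.55 in C57BL/6J against 7.01 and 7.25 in KKAy at 4 weeks, and at 6.20 and 6.18 against 7.51 and 7.55 at 11 weeks. The strains did not overlap, and the difference was 1.61 ± 0.12 (SE; 3.06-fold, adjusted p = 0.000704) and then 1.35 ± 0.12 (2.54-fold, adjusted p = 0.000974). In C57BL/6J it rose with age by 0.68 ± 0.12 (adjusted p = 0.0223), a call that was lost without any 1 of the 4 C57BL/6J arrays (0.64 to 0.71, adjusted p from 0.103 to 0.16). Serpina3n, an acute phase inhibitor whose upstream window is almost that of Serpina3c, was at 5.45 and 5.07 against 6.08 and 5.58 at 4 weeks, and at 5.34 and 4.94 against 5.87 and 5.11 at 11 weeks. Its groups lay apart at 4 weeks and overlapped at 11, and it passed in no comparison without a replicate block (0.57 ± 0.32, adjusted p = 0.339, and 0.35 ± 0.32, adjusted p = 0.515).

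Serpina3f and Serpina3g, members best known from lymphoid and myeloid cells, fell both with age and in KKAy. Serpina3g was at 2.84 and 3.08 in C57BL/6J at 4 weeks and at 1.31 and 1.54 in KKAy. At 11 weeks it was at 1.24 and 1.39 in C57BL/6J and at -0.50 and -0.17 in KKAy. KKAy of 4 weeks thus overlapped C57BL/6J of 11 weeks, and both stood between the highest and the lowest group. The strain difference was -1.54 ± 0.17 at 4 weeks (adjusted p = 0.00287) and -1.65 ± 0.17 at 11 weeks (adjusted p = 0.00172). Between 4 and 11 weeks Serpina3g fell by 1.65 on the log2 scale in C57BL/6J (adjusted p = 0.00377) and by 1.75 in KKAy (adjusted p = 0.00208).

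Serpina3f was likewise highest in C57BL/6J of 4 weeks and lowest in KKAy of 11 weeks, and it had 2 probes. The brighter probe was at -0.08 and -0.35 in C57BL/6J at 4 weeks, at -1.79 and -2.13 at 11 weeks, at -2.27 and -2.57 in KKAy at 4 weeks, and at -4.09 and -4.21 at 11 weeks. No groups overlapped. KKAy was 4.6-fold lower at 4 weeks and 4.55-fold lower at 11 weeks (adjusted p = 0.00108 and 0.000845). With age the gene fell by 1.74 in C57BL/6J and by 1.73 in KKAy on the log2 scale (adjusted p = 0.00401 and 0.0027). The second probe gave -2.72 and -2.59 for the strain differences and -1.71 and -1.57 for the age differences, all 4 past the threshold. All calls of Serpina3f and Serpina3g were kept in each of the 18 alternative analyses, but with normexp background correction Serpina3f differed between the strains at 11 weeks by -0.95 and with age in KKAy by -0.66 on the log2 scale. Macrophage and lymphoid markers moved the same way, as given with clade B.

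Serpina3k and Serpina3m, the kallikrein-binding and a related member, also gave raw signals near the top of the range. Serpina3k was at 8.73 and 9.25 against 8.86 and 9.22 at 4 weeks and at 9.41 and 9.51 against 9.26 and 9.46 at 11 weeks. The strains overlapped, and the differences were 0.05 ± 0.21 and -0.10 ± 0.21 (adjusted p = 0.936 and 0.795). A dimmer second probe of Serpina3k was at 7.21 and 7.28 against 7.63 and 8.04, and then at 7.66 and 7.61 against 8.04 and 8.33. There the strains did not overlap at either age, though the differences of 0.60 ± 0.17 and 0.55 ± 0.17 did not pass over all probes (adjusted p = 0.081 and 0.0776). Serpina3m differed by -0.08 ± 0.24 and -0.22 ± 0.24 (adjusted p = 0.895 and 0.6). Genes of the 2 clusters are close copies of each other, and their probes may cross-hybridise; probe sequences were not used here, and how much each probe takes from its relatives was not tested.

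**Figure D2:**
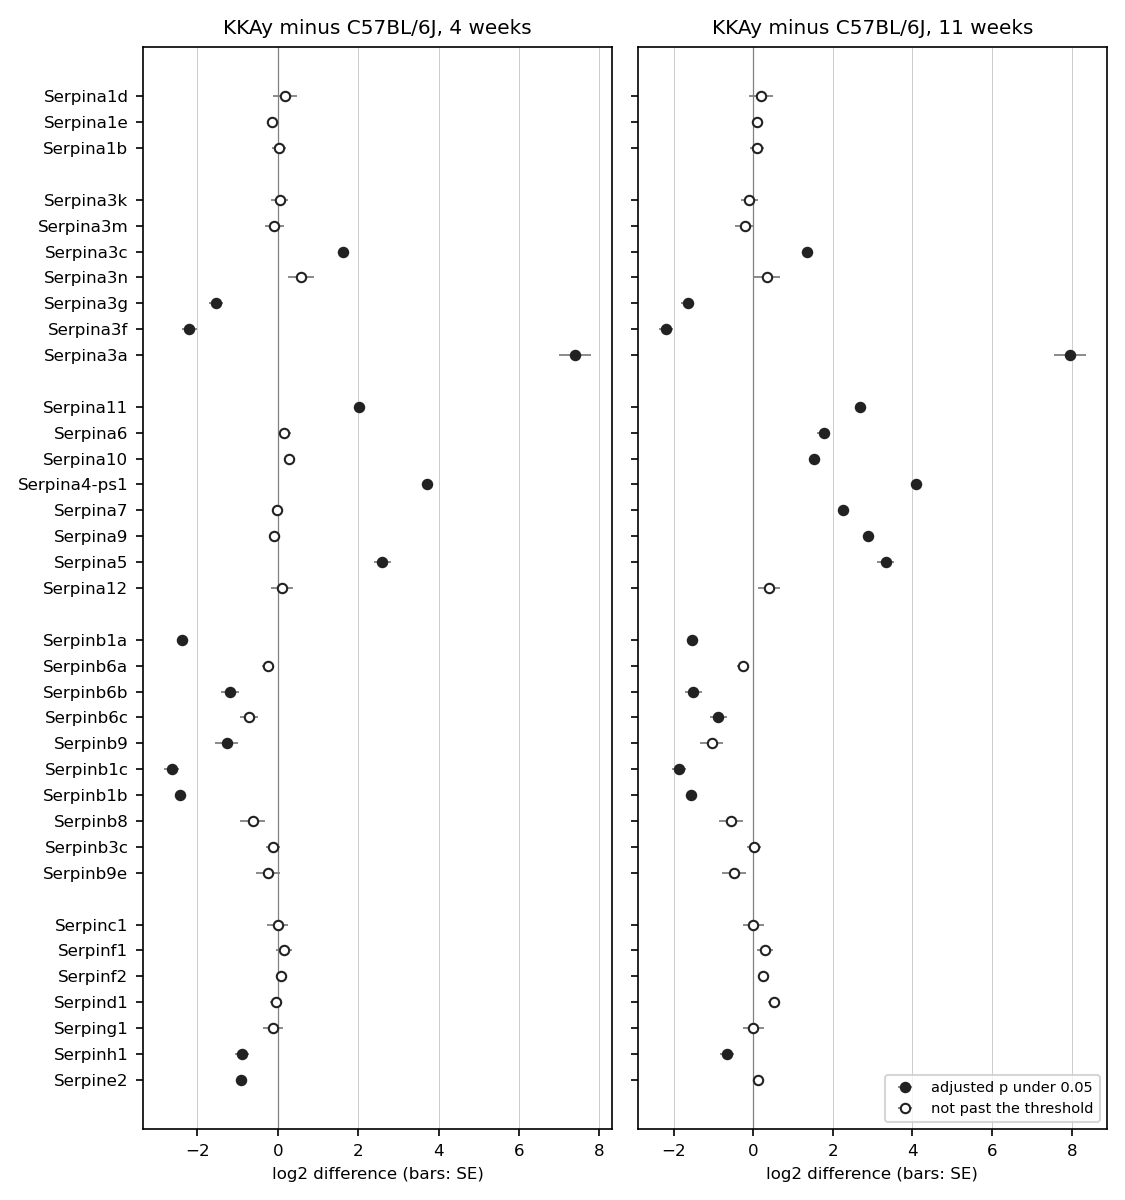
Strain difference of each of the 35 genes (x axis, log2, KKAy minus C57BL/6J, bars SE) at 4 weeks (left) and 11 weeks (right), in the order of the clades, with filled points for adjusted p under 0.05. Filled points of the other clade A genes, 3 at 4 weeks and 7 at 11 weeks, are all to the right of 0, and those of clade B, 5 at each age, all to the left.

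Among the other clade A genes 3 were higher in KKAy at 4 weeks and 7 of 8 at 11 weeks. Serpina11, a liver serpin of little known function, was at 3.57 and 3.36 against 5.48 and 5.48 at 4 weeks, and at 3.41 and 3.35 against 6.11 and 6.02 at 11 weeks. The strains were far apart, by 2.01 ± 0.11 and 2.69 ± 0.11 (4.03-fold and 6.44-fold, adjusted p = 0.000353 and 0.000113). Its window, at chr12:103989958-103990207 on the minus strand, is shown for the STAT motif it shares with Serpina3f and Serpina3g, genes that went the other way.
Serpina11: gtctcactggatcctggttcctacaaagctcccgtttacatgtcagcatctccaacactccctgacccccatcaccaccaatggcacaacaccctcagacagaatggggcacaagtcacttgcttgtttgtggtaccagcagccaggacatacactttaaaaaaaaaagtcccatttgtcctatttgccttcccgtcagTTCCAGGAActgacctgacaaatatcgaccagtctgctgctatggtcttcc
The capitals mark TTCNNNGAA, which begins 51 bases before the start.

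Serpina4-ps1, which RefSeq names as a pseudogene related to the kallistatin gene, was 13.1-fold higher in KKAy at 4 weeks and 17.0-fold higher at 11 weeks (adjusted p = 9.69e-05 and 4.17e-05). It was at -1.45 and -1.56 against 2.20 and 2.21, and then at -0.97 and -1.17 against 3.07 and 2.96. Its second probe gave 4.23 ± 0.16 and 4.72 ± 0.16 on the log2 scale, beside 3.71 ± 0.12 and 4.09 ± 0.12 for the first. Serpina5, the protein C inhibitor, was at -5.30 and -5.36 against -2.86 and -2.60, and then at -5.31 and -4.72 against -1.76 and -1.61. Only 1 of the 2 C57BL/6J arrays of 4 weeks had it well above background. The difference was 2.59 ± 0.21 and 3.33 ± 0.21 (adjusted p = 0.00109 and 0.00037), and the second probe gave 2.05 ± 0.22 and 3.23 ± 0.22. That second probe was well above background on only 3 arrays, at -7.67 to -7.16 in C57BL/6J and at -5.37 to -4.03 in KKAy. It passed the filter on dim probes through KKAy alone, so it was selected for the difference and adds no support. With normexp background correction the differences of Serpina5 were smaller, 1.22 and 1.65, though both passed (adjusted p = 0.0175 and 0.00524), and its rise with age in KKAy did not (0.68, adjusted p = 0.101).

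The next 4 members did not differ past the threshold at 4 weeks and did at 11, the pattern tested by the interaction of strain and age. In that comparison 5 of 35 Serpin genes passed, all 5 with a strain difference that moved upwards in KKAy, where 3.81% of all genes passed (2.05% upwards and 1.76% downwards). Serpina9, which is typical of germinal centre B cells, was at -3.64 and -3.53 against -3.84 and -3.51 at 4 weeks, and at -4.35 and -4.33 against -1.47 and -1.45 at 11 weeks. Overlapping at 4 weeks, the strains came to differ 7.38-fold, and the interaction was 2.97 ± 0.19 (adjusted p = 0.00284). Serpina7, the thyroxine-binding globulin on chromosome X, was at -2.30 and -2.40 against -2.40 and -2.35 at 4 weeks, and at -3.47 and -3.45 against -1.25 and -1.13 at 11 weeks. It went down with age in C57BL/6J and up in KKAy (-1.11 ± 0.10 and 1.18 ± 0.10, adjusted p = 0.00276 and 0.00148), and the interaction was 2.29 ± 0.14 (adjusted p = 0.00241).

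Serpina6, the corticosteroid-binding globulin, was at 4.28 and 4.51 against 4.45 and 4.68 at 4 weeks, and at 3.25 and 3.40 against 4.95 and 5.25 at 11 weeks. It fell in C57BL/6J with age by 1.07 on the log2 scale (adjusted p = 0.0143), and its interaction was 1.61 ± 0.23 (adjusted p = 0.023). Serpina10, the inhibitor of factor Xa that acts with protein Z, was at 2.44 and 2.34 against 2.65 and 2.68, and then at 2.18 and 2.17 against 3.71 and 3.66. KKAy rose by 1.02 ± 0.10 with age (adjusted p = 0.00193), C57BL/6J changed by -0.22 ± 0.10 (adjusted p = 0.279), and the interaction was 1.24 ± 0.13 (adjusted p = 0.0111). The interaction of Serpina7 was kept in all 17 alternatives, while that of Serpina9 was lost with normexp background correction (1.40, adjusted p = 0.0636). Under that correction the interaction of Serpina7 was 1.34, the 11-week strain differences of Serpina7 and Serpina9 were 1.40 and 1.5, and the change of Serpina9 with age in KKAy was 1.45. Those of Serpina6 and Serpina10 were lost without any of several single arrays. For Serpina6 they were all but KKAy replicate 1 of 11 weeks (1.46 to 1.73, adjusted p from 0.0687 to 0.127), and for Serpina10 all but C57BL/6J replicate 2 of 4 weeks and the 2 KKAy arrays of 11 weeks (1.19 to 1.25, adjusted p from 0.0588 to 0.0835).

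Serpina12, the adipokine vaspin, is the remaining member. It was at -7.33 and -7.00 against -7.46 and -6.65 at 4 weeks, not well above background on those 4 arrays, and at -4.81 and -4.88 against -4.57 and -4.33 at 11 weeks. Between 4 and 11 weeks it rose at least 1.96-fold in C57BL/6J and at least 1.75-fold in KKAy (limma adjusted p = 0.00614 and 0.0029). The gene passed the filter on dim probes only through the 11-week arrays of both strains. It was thus selected for the rise, and its p-values support nothing further. The strain groups of 11 weeks differed by 0.39 ± 0.28 (adjusted p = 0.393). With normexp background correction neither rise passed (0.61 and 0.68, adjusted p = 0.321 and 0.158), and without C57BL/6J replicate 1 or 2 of 11 weeks the first was lost (2.29 and 2.36, adjusted p = 0.0583 and 0.0539).

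**Figure D3:**
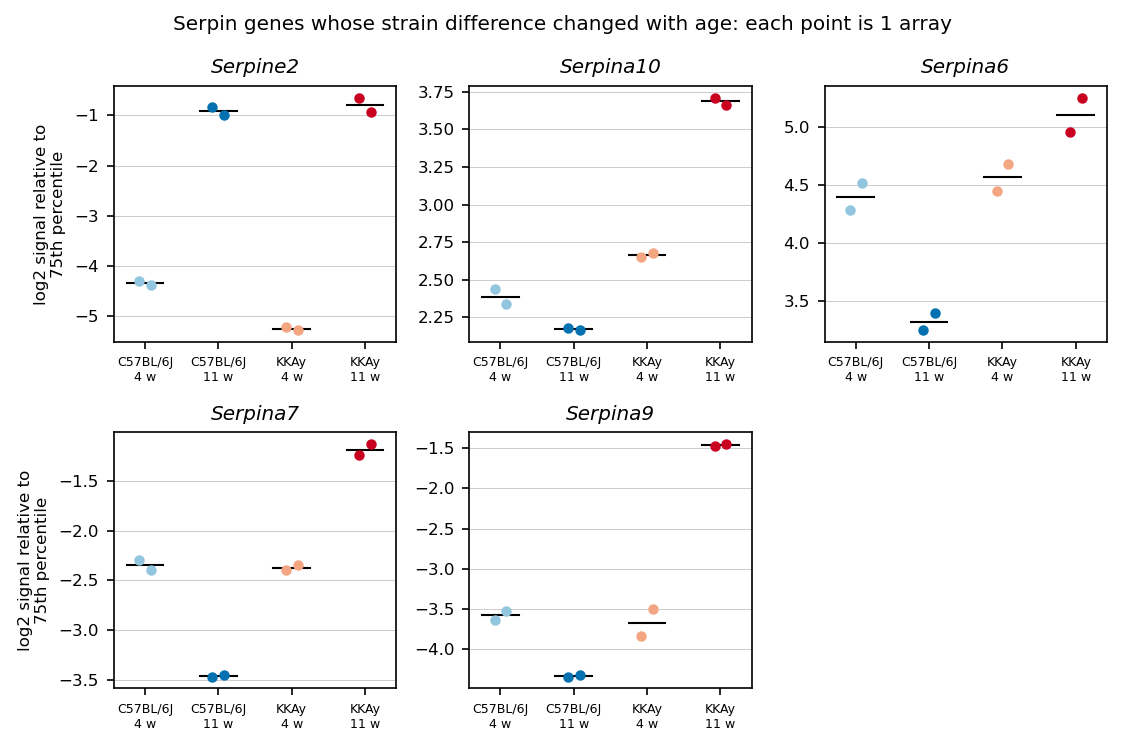
The 5 Serpin genes whose strain difference changed between 4 and 11 weeks (interaction adjusted p under 0.05): y axis, log2 signal relative to the array's 75th percentile on an axis of its own for each gene; points, the 2 arrays of each group; lines, group means. In KKAy of 11 weeks Serpina9 stands at -1.47 and -1.45, above the other 3 groups, while Serpine2 rises with age in both strains.

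Along chromosome 12 the Serpin genes lay within 785 kb, from Serpina10, with Serpina6 18.4 kb on, to Serpina3n, by the probe positions of the files (mm8). Genes that were higher in KKAy at both ages, Serpina11, Serpina4-ps1, Serpina5, Serpina3a and Serpina3c, lay 355, 453, 478, 493 and 519 kb from Serpina10. Between them, at 369 and 401 kb, stood Serpina9, which was higher only at 11 weeks, and Serpina12, which did not pass. Next to them, at 593 and 614 kb, lay Serpina3f and Serpina3g, both lower in KKAy. The 3 Serpina1 genes, at 102, 135 and 323 kb, and Serpina3k, Serpina3m and Serpina3n, at 717, 766 and 785 kb, flanked the stretch on either side and did not pass. Beyond the Serpina1 genes, Serpina10 and Serpina6 were higher in KKAy at 11 weeks only (1.52 and 1.78, limma adjusted p = 0.000353 and 0.0012).

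Of 17 kept genes that neighbour the run, 3 were higher and 4 lower in KKAy at 4 weeks, where 6.41% and 8.99% of all genes tested were. At 11 weeks 1 was higher and 3 lower, where 9.96% and 11.5% of all genes were. Asb2, a ubiquitin ligase subunit at -307 kb from Serpina10, was lower in KKAy at 4 weeks (-1.57 ± 0.17, adjusted p = 0.00298) and higher at 11 weeks (1.48 ± 0.17, adjusted p = 0.00279). The interferon-induced Ifi27l2a was lower at 4 weeks (-1.85 ± 0.26, adjusted p = 0.00694). Ppp4r4, the nearest of them, at -15.3 kb, did not pass (-0.01 ± 0.14 and 0.38 ± 0.14, adjusted p = 0.974 and 0.112). None of the neighbours reached the size of the Serpina3a, Serpina4-ps1 or Serpina5 differences.

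Clade B was lower in KKAy wherever it differed: 5 of its 10 kept genes passed at each age, none of them upwards. The Serpinb1 genes led at 4 weeks. Among them Serpinb1a is an inhibitor of neutrophil granule proteases. Serpinb1a was at 2.11 and 2.27 against -0.26 and -0.13 at 4 weeks, and at 1.66 and 1.79 against 0.14 and 0.24 at 11 weeks. The strains did not overlap and differed 5.22-fold and 2.9-fold (adjusted p = 0.000244 and 0.000691). Serpinb1b was at -1.96 and -2.05 against -4.49 and -4.37, and then at -2.31 and -2.46 against -3.79 and -4.10. Serpinb1c was at -1.29 and -1.44 against -4.15 and -3.86, and then at -2.19 and -2.41 against -3.98 and -4.36. KKAy was again the lower strain on every array, by 5.38-fold and 2.95-fold for Serpinb1b (adjusted p = 0.000404 and 0.00119) and by 6.24-fold and 3.66-fold for Serpinb1c (adjusted p = 0.00064 and 0.00149). With normexp background correction the differences were -1.17 and -0.63 for Serpinb1b and -1.70 and -0.89 for Serpinb1c on the log2 scale, and all 4 passed. The second Serpinb1c probe gave -2.64 ± 0.31 and -1.5 ± 0.31. It was well above background on only 4 arrays, at -4.38 to -3.96 in C57BL/6J and at -7.13 to -5.57 in KKAy. This probe passed the filter on dim probes through C57BL/6J alone, so it was selected for the difference and adds no support. With age Serpinb1c fell in C57BL/6J by 0.93 on the log2 scale (adjusted p = 0.0345), but not by the second probe (-0.30 ± 0.31, adjusted p = 0.729), and the call was lost without any 1 of the C57BL/6J arrays (-1.05 to -0.82, adjusted p from 0.119 to 0.206) or of the 4-week KKAy arrays (adjusted p = 0.053), and with normexp (-0.69, adjusted p = 0.0818).

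Serpinb6b, an intracellular inhibitor related to the granule protease inhibitor Serpinb6a, was at -0.60 and -0.19 against -1.73 and -1.45 at 4 weeks, and at -0.23 and -0.01 against -1.83 and -1.42 at 11 weeks. It was lower in KKAy by 1.19 and 1.51 on the log2 scale (adjusted p = 0.0165 and 0.00595). Leaving out C57BL/6J replicate 2 of 4 weeks ended the 4-week call (-0.99, adjusted p = 0.0876), as did KKAy replicate 1 or 2 of that age (-1.05 and -1.34, adjusted p = 0.0875 and 0.0506). Serpinb9, which guards cytotoxic lymphocytes against their own granzyme B, was at -1.96 and -2.32 against -3.36 and -3.48, and then at -2.19 and -2.42 against -3.79 and -2.92. The groups did not overlap at either age, yet it passed at 4 weeks only (-1.28 ± 0.30, adjusted p = 0.0376, and -1.05 ± 0.30, adjusted p = 0.0557), while its second probe passed at both (-1.02 ± 0.25 and -1.04 ± 0.25, adjusted p = 0.0474 and 0.0351). Without any 1 of the 4-week arrays or the 11-week C57BL/6J arrays the 4-week call did not pass (-1.46 to -1.10, adjusted p from 0.0786 to 0.179), nor did it with normexp (-0.67, adjusted p = 0.0815).

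Serpinb6c was lower in KKAy at 11 weeks, at -1.74 and -2.0 against -2.51 and -2.98 (-0.87 ± 0.22, adjusted p = 0.0406). Leaving out any 1 array except KKAy replicate 1 of 11 weeks ended that call (-1.01 to -0.64, adjusted p from 0.0522 to 0.211). Serpinb6a, an inhibitor of cathepsin G, fell with age in KKAy, from 0.67 and 0.51 to 0.12 and -0.18 (-0.62 ± 0.15, adjusted p = 0.036), and moved by -0.61 ± 0.15 in C57BL/6J (adjusted p = 0.0647). Its call too was lost without any 1 array other than KKAy replicate 1 of 11 weeks (-0.70 to -0.47, adjusted p from 0.062 to 0.162). The remaining kept members, Serpinb3c, Serpinb8 and Serpinb9e, passed in no comparison.

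Where they differed between the strains, macrophage and lymphoid markers were lower in KKAy, as clade B genes were. Of 9 macrophage and Kupffer cell markers 8 were lower in KKAy at 4 weeks and 6 at 11 weeks, and of 8 kept lymphocyte and natural killer markers 5 and 4 were, where 8.99% and 11.5% of all genes tested were lower. The summed linear signal of the macrophage markers, relative to the 75th percentile, was 161 to 190 in C57BL/6J and 63.2 to 70.0 in KKAy at 4 weeks, and 67.1 to 72.3 against 39.0 to 40.4 at 11 weeks. That of the lymphoid markers was 2.07 to 2.36 against 0.795 to 0.907, and then 0.863 to 0.885 against 0.569 to 0.636. Both sums put C57BL/6J of 4 weeks highest and KKAy of 11 weeks lowest, as did Serpina3f and Serpina3g. Within C57BL/6J 8 of 9 macrophage and 4 of 8 lymphoid markers fell with age, where 6.46% of all genes tested fell. Within KKAy 5 and 4 of them fell, where 10.7% of all genes did. Of the 10 kept clade B genes 1 fell with age in each strain, and none rose past the threshold.

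Gzma and Gzmb, the granzymes of cytotoxic cells, differed between KKAy and C57BL/6J at 4 weeks by -5.02 and -1.96 on the log2 scale (adjusted p = 0.000152 and 0.000302), and the macrophage genes Mpeg1 and Clec4f by -1.46 and -1.35 (adjusted p = 0.000704 and 0.00129). At 11 weeks Marco and Csf1r differed by -4.94 and -0.88 (adjusted p = 0.000562 and 0.00502). Neutrophil markers, of which Ly6g, Ngp, Camp and Elane were not above background, did not go down: 1 of 4 kept markers was higher in KKAy at 4 weeks and 2 at 11 weeks, S100a8 and S100a9. All 9 macrophage markers were above background, and of the lymphoid ones Ncr1 was not. Over all genes tested 6.41% were higher in KKAy and 8.99% lower at 4 weeks, and 9.96% and 11.5% at 11 weeks. Markers of other cells are given for KKAy against C57BL/6J at 4 and then 11 weeks. Of 8 endothelial ones 1 was higher and 1 lower, then 1 and 2. Of 5 kept cholangiocyte markers 1 was lower each time, of 3 kept erythroid ones 2 and 1 were higher, of 5 megakaryocyte ones 3 and 1 were higher, and of 8 hepatocyte ones 2 were lower, then 4 lower and 1 higher. The part of these cells in the clade B, Serpina3f and Serpina3g values was not tested.

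In clades C to I 5 plasma inhibitors passed in no comparison by their brightest probe, while Serpine2 and Serpinh1 did. Serpinc1, or antithrombin, was at 7.42 and 8.07 against 7.53 and 7.95 at 4 weeks, and at 8.06 and 8.22 against 7.98 and 8.29 at 11 weeks. Its strain groups overlapped, and the 95% interval of the difference was -0.64 to 0.63 at 4 weeks and -0.64 to 0.64 at 11 weeks. A second, dimmer probe gave 0.11 ± 0.10 and 0.21 ± 0.10 (adjusted p = 0.611 and 0.231). Serpind1 (heparin cofactor II), Serpinf1 (pigment epithelium-derived factor), Serpinf2 (alpha-2-antiplasmin) and Serping1 (the C1 inhibitor) passed in no comparison either, with strain differences from -0.12 to 0.16 at 4 weeks and from 7.2e-05 to 0.53 at 11 weeks. The largest of these, Serpind1 at 11 weeks, was singled out after its values were seen. It was at 6.47 and 6.56 against 6.90 and 7.19, did not overlap and stayed above the threshold (0.53 ± 0.15, adjusted p = 0.0544). The second Serpinf1 probe, at 4.99 and 4.97 against 5.32 and 5.37, did pass at 11 weeks (0.36 ± 0.10, adjusted p = 0.0495).

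Serpine2, protease nexin 1, an inhibitor of thrombin and plasminogen activators at the cell surface, rose with age in both strains. It was at -4.30 and -4.38 in C57BL/6J and at -5.22 and -5.27 in KKAy at 4 weeks, and at -0.83 and -1.0 and at -0.65 and -0.93 at 11 weeks. The rise was 10.7-fold in C57BL/6J and 21.9-fold in KKAy (adjusted p = 0.000239 and 7.95e-05), and the strains overlapped at 11 weeks. With normexp background correction the rises were 2.26 and 2.33 on the log2 scale, in place of 3.42 and 4.46, and both still passed. At 4 weeks, when 1 of the 2 KKAy arrays was well above background, KKAy differed by -0.91 on the log2 scale (adjusted p = 0.00787), and the interaction was 1.03 ± 0.19 (adjusted p = 0.0456). Both of those calls ended under normexp background correction, where they were 0.0102 and 0.07 (adjusted p = 0.985 and 0.989). The 4-week call also ended when C57BL/6J replicate 1 or KKAy replicate 2 of that age was left out (-0.86 and -0.88, adjusted p = 0.0567 and 0.0543), and the interaction call when any 1 of the 8 arrays was (0.89 to 1.17, adjusted p from 0.0656 to 0.201).

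Serpinh1, the collagen chaperone HSP47, fell with age and was lower in KKAy. It was at 1.22 and 1.5 against 0.40 and 0.53 at 4 weeks, and at 0.22 and 0.46 against -0.46 and -0.18 at 11 weeks. KKAy of 4 weeks and C57BL/6J of 11 weeks overlapped. The strain differences were -0.89 ± 0.17 and -0.66 ± 0.17 (adjusted p = 0.0188 and 0.0399), and the age differences -1.02 ± 0.17 in C57BL/6J and -0.79 ± 0.17 in KKAy (adjusted p = 0.0192 and 0.0263). Each of the 4 calls was lost without some single array: the 4-week one without C57BL/6J replicate 2 or either KKAy array of that age (-0.95 to -0.75, adjusted p up to 0.102), the 11-week one without any 1 of the 8 arrays (-0.80 to -0.52, adjusted p up to 0.204), the C57BL/6J one without any of that strain's arrays (-1.16 to -0.88, adjusted p up to 0.141), and the KKAy one without either 11-week C57BL/6J array, either 4-week KKAy array or KKAy replicate 1 of 11 weeks (-0.85 to -0.64, adjusted p up to 0.124). Among 9 stellate cell markers, 3 were lower in KKAy at 4 weeks, where 8.99% of all genes tested were. At 11 weeks 5 were lower and 1 higher, where 11.5% and 9.96% of all genes were. Col1a1 and Col3a1, the collagens whose folding Serpinh1 assists, fell with age, at -2.22 and -3.03 in C57BL/6J and at -2.36 and -2.03 in KKAy (adjusted p = 0.00191, 0.000239, 0.000963 and 0.00023). The summed stellate signal was 58.5 to 66.1, 48.3 to 55.9, 47.0 to 50.9 and 27.3 to 32.9 in C57BL/6J and KKAy of 4 weeks and then of 11 weeks. Its part in the Serpinh1 values was not tested.

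With age, 10 of 35 Serpin genes changed in C57BL/6J, 3 upwards and 7 downwards, where 8.35% of all genes did (1.89% upwards and 6.46% downwards). In KKAy 13 changed, 9 upwards and 4 downwards, where 18.6% did (7.9% upwards and 10.7% downwards). Serpina3f, Serpina3g and Serpinh1 fell in both strains, and Serpine2 and Serpina12 rose in both. The counts of both strains include Serpina12, which passed the filter on dim probes through the 11-week groups alone. Of the 8 other clade A genes 1 rose and 3 fell in C57BL/6J, 7 rose and 0 fell in KKAy, and 4 passed the interaction. Serpina11, Serpina4-ps1 and Serpina5 rose in KKAy by 0.59, 0.81 and 1.05 (adjusted p = 0.0189, 0.00741 and 0.0232). Scaling to the array median moved the median of all genes to 0.20 in C57BL/6J and 0.13 in KKAy, and gave 6 upwards and 6 downwards in C57BL/6J and 15 and 3 in KKAy. The C57BL/6J count was 4 or 5 without any 1 of the 4 C57BL/6J arrays, the KKAy count was 8 without KKAy replicate 1 of 4 weeks, and the interaction count was 2 or 3 without any 1 array other than KKAy replicate 1 of 11 weeks. The calls of Serpina11 and Serpina5 in KKAy were lost without any 1 of the KKAy arrays (0.55 to 0.63 and 0.92 to 1.18), and that of Serpina11 also without either 11-week C57BL/6J array (adjusted p = 0.0537). Under normexp background correction the fall of Serpina7 in C57BL/6J did not pass (-0.47, adjusted p = 0.0788) and that of Serpina9 turned to 0.0504 (adjusted p = 0.923). The fall of Serpina6 and that of Serpina9 in C57BL/6J (-0.76 ± 0.14, adjusted p = 0.0271) were lost without any 1 of that strain's arrays (-1.19 to -0.96 and -0.81 to -0.7). The 2 age comparisons share no array with each other, but each shares arrays with both strain comparisons.

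Most pairs of probes for 1 gene went the same way. At 4 weeks 5 of the 10 Serpin genes with 2 kept probes were called by the brighter probe, and by both, with the same sign in 8 of 10, where 14.5% of all kept probes were called. At 11 weeks the brighter probe called 5, the second 7, and both 5, with the same sign in 8, against 21.0% of all kept probes. The strain counts include the second probes of Serpina5 and Serpinb1c, well above background on only 3 and 4 arrays. These passed the filter on dim probes through KKAy and through C57BL/6J alone, so they were selected for a strain difference. For age in C57BL/6J the brighter probe called 2 and both called 1 (6.98% of all kept probes), and for age in KKAy each called 4, with both calling 4 (17.3%). In the interaction the brighter probe called 1, Serpina10, and the second none (2.94%): the second Serpina10 probe gave 1.03 ± 0.27 (adjusted p = 0.122).

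**Figure D4:**
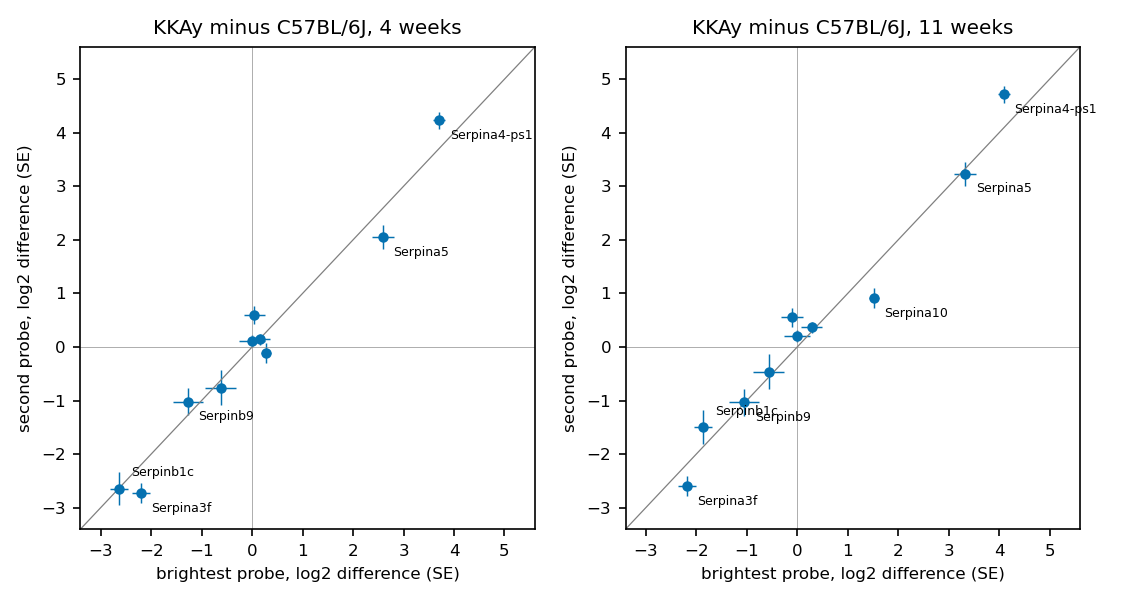
Strain difference of the second probe (y axis, log2, bars SE) against that of the brightest probe (x axis) for the 10 Serpin genes with 2 kept probes, at 4 weeks (left) and 11 weeks (right); the diagonal marks equal values. Serpina4-ps1 lies above it, at 4.23 against 3.71 and 4.72 against 4.09, and Serpina10 at 11 weeks below it, at 0.91 against 1.52.

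Genes that act with the serpins were followed in lists of known roles, whose counts stand beside the 15.4% of all genes tested that differed between the strains at 4 weeks and the 21.5% at 11 weeks. Of 22 kept proteases that liver serpins inhibit, none was higher and 2 lower in KKAy at 4 weeks, Gzmb and the growth factor activator Hgfac (-0.45 ± 0.10, adjusted p = 0.0357). At 11 weeks 3 were higher and 1 lower. Klkb1, plasma prekallikrein, was higher by 0.75 ± 0.11 (adjusted p = 0.00676), and Gzmb was the lower one (-1.36 ± 0.10, adjusted p = 0.000636). The median difference of the list was 0.02 and 0.22, beside 0.01 and -9.9e-05 over all genes tested. Inhibitors of other families had 2 of 24 higher at 4 weeks, and 6 higher and 2 lower at 11 weeks, with Timp3 at -0.71 ± 0.10 and Tfpi2 at 0.74 ± 0.12 (adjusted p = 0.00512 and 0.00787). Of 15 cofactors and clearance receptors 1 was higher and 1 lower at 4 weeks, and 1 and 3 at 11 weeks. The urokinase receptor Plaur was lower at 4 weeks (-1.01 ± 0.10, adjusted p = 0.0022) and the proteoglycan Sdc1 at 11 weeks (-0.70 ± 0.09, adjusted p = 0.00477).

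Regulators of liver serpin genes had 5 of 20 higher and 2 lower in KKAy at 4 weeks, and 4 higher and 1 lower at 11 weeks. The interleukin 6 receptor Il6ra was higher at 4 weeks (0.81 ± 0.11, adjusted p = 0.00664), and Cux2, a factor typical of female liver, was lower at 4 weeks (-1.63 ± 0.24, adjusted p = 0.00784) and at 11 weeks (-1.95 ± 0.24, adjusted p = 0.00348). Ghr, the growth hormone receptor, was higher at 11 weeks (0.83 ± 0.13, adjusted p = 0.00701). Acute phase genes outside the family had the most calls of these lists: 12 of 22 were higher and 1 lower at 4 weeks, and 15 higher and 1 lower at 11 weeks, with medians of 0.85 and 1.29. Orm3 and Apcs, plasma proteins that rise in inflammation, were higher by 2.74 ± 0.11 and 2.55 ± 0.19 at 4 weeks (adjusted p = 0.000155 and 0.000779), and by 2.26 ± 0.11 and 4.07 ± 0.19 at 11 weeks (adjusted p = 0.000189 and 0.000152). With age 4 of the 22 rose and 1 fell in C57BL/6J, where 1.89% and 6.46% of all genes tested did. In KKAy 10 rose and 1 fell, where 7.9% and 10.7% of all genes did.

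The remaining 18 Serpin genes were not well above background on both arrays of any group and are not measured here: Serpina1f, Serpina3b, Serpinb2, Serpinb3a, Serpinb3b, Serpinb3d, Serpinb5, Serpinb7, Serpinb9b, Serpinb9c, Serpinb9d, Serpinb9g, Serpinb10, Serpinb11, Serpinb12, Serpinb13, Serpini1 and Serpini2. Of these 14 belong to clade B. Of the 35 kept genes 30 were well above background on all 8 arrays, and the others were Serpina12, Serpina3a, Serpina5, Serpinb9e and Serpine2.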

How the data were processed

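Liver RNA was read on 8 one-colour Agilent arrays, 2 per group of strain and age. Per the file headers, the authors extracted spot intensity with Agilent Feature Extraction 9.5.1.1 (mm8 annotation), with background subtraction and a high-gain and a low-gain scan, and the processed signal was used. The deposited value table holds log2 values that equal the log2 processed signal minus a constant per array within 0.001 for 99.6% of values, with column medians from -3.96 to -3.67.

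Control and outlier spots were left out, and each array's 75th percentile was subtracted from its log2 signals. Of 41174 probes 25320 were well above background on the 2 arrays of 1 group or more. The brightest probe stood for a gene. limma 3.58.1 (R 4.3.3; lmFit and eBayes) fitted the 4 groups over 8 arrays, with Benjamini-Hochberg adjustment over 17047 genes and a threshold of 0.05; it was tested on simulated data. Tables and figures used pandas 2.3.3, numpy 2.4.6 and matplotlib 3.10.9 on Python 3.11.15. With 2 arrays per group, the number of arrays limits the precision.

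Named were the kept Serpina1 and Serpina3 members, every other Serpin gene called at least once, the 5 brightest never called, and up to 2 called genes per list and comparison with the smallest adjusted p. Members and lists were chosen with earlier results of these data known. Gene names came from RefSeq by accession (24495 probes), symbol (6234) or older symbol (2382), and otherwise from the files (8063). Alternatives were normexp background correction with an offset of 50, quantile, median and spike-in scaling, 2 other filters, all probes of a gene, the deposited table, 4 arrays per comparison, the replicate number as a block, and leaving out each array. Promoter windows came from RefSeq (GRCm38.p6). Serpina10, Serpina3k, Serpina3m, Serpina4-ps1, Serpina6, Serpina9, Serpinb1a and Serping1 had none in that table. Of the genes the rule finds, 1 is not reported here and is left out of the members' counts.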

Additional observations from a re-analysis of the deposited data

Results flagged for a closer look

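The strain difference changed between 4 and 11 weeks for 5 Serpin genes, by the limma test of the interaction on the log2 scale. The change was 2.97 for Serpina9 (adjusted p = 0.00284), 2.29 for Serpina7 (adjusted p = 0.00241), 1.61 for Serpina6 (adjusted p = 0.023), 1.24 for Serpina10 (adjusted p = 0.0111) and 1.03 for Serpine2 (adjusted p = 0.0456). All 5 moved towards higher levels in KKAy. Age and slide cannot be told apart within a strain, while the interaction compares the strains on both slides.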

How the results depend on the processing

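Of 59 Serpin calls 35 were kept in every alternative that gave a value, 24 were lost in at least 1 and 2 changed sign, both under normexp background correction: Serpine2 between the strains at 4 weeks (0.0102) and Serpina9 with age in C57BL/6J (0.0504). Calls lost numbered 17 with no filter on dim probes, 14 with spike-in scaling, 11 with normexp and 11 with the 4 arrays of a comparison alone, which was not run for the interaction. The 14 and 17 strain calls became 11 to 19 and 15 to 23, and 10 to 14 and 15 to 16 without single arrays. The 10 age calls in C57BL/6J became 5 with no filter, 6 with normexp and 4 to 10 without single arrays. The 13 in KKAy became 7 with the 4 arrays alone and 8 to 12 without single arrays, and the 5 of the interaction 2 with no filter, 3 with normexp, 3 with spike-in scaling and 2 to 4 without single arrays. Where an array was left out, its partner was taken to vary like the other groups. The cause was not tested. With the replicate number as a block the counts were 19 and 23 for strain, 20 and 24 for age and 10 for the interaction, and Serpina3n passed between the strains (0.57 and 0.35, adjusted p = 0.0118 and 0.0417) and with age in KKAy (-0.34, adjusted p = 0.0466). Same-numbered arrays deviated together (correlations from 0.53 to 0.676 over 6 pairs of groups), but a group has 2 numbers, and they were not taken as pairs. Spike-in scaling moved the median of all genes to 0.26 at 4 weeks, and median scaling to 0.12.

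Over all genes the calls ranged, without single arrays and then under the other alternatives, from 1316 to 2586 and 1401 to 7473 at 4 weeks, 1475 to 3070 and 2120 to 9365 at 11 weeks, 461 to 1326 and 661 to 5770 with age in C57BL/6J, 1344 to 2400 and 743 to 9105 in KKAy, and 62 to 295 and 142 to 5286 for the interaction. Probes near background bound low levels, and probes near the top of the scan bound high ones.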

Other observations

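A further 5 probes lay outside the rule, since the files name them otherwise and RefSeq accessions give them a Serpin symbol. The probe matched to Serpina3j had mean levels of 5.67 and 6.18 in C57BL/6J at 4 and 11 weeks and of 6.47 and 6.61 in KKAy. That matched to Serpinb6d had -3.32 and -3.47 in C57BL/6J and -3.70 and -3.92 in KKAy, and that of Serpina3l-ps -3.30 and -2.63 against -3.19 and -3.45. Probes matched to Serpine3 and to Serpinb6a were above background on no array.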
